A study of Mus musculus with 16 samples.

Results

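The genes described here are those of cholesterol synthesis and of its control by SREBP2 in mouse liver. They were named by symbol, 32 genes in all. These genes and the other lists used below were chosen with earlier results of these data known. A row of the deposited array table was taken for a gene when the platform annotation gave its probe set that symbol and no other. Such a row was found for 29 of the 32, all 29 passed the filter on low values, and they stand among 15908 genes tested. Acat2, the cytosolic thiolase of the first step, and Soat2, which esterifies cholesterol for storage, matched no such row, and Mbtps2, the second of the Golgi proteases that cut SREBP2, shares its probe set with Yy2. These 3 were not analysed here. Idi1, Fdft1 and Tmem97 had more than 1 probe set, and the one of highest mean over the 16 arrays stands for the gene. Srebf2 had 1 further probe set that carries several symbols, and that probe set was not analysed.

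Whole-liver RNA was profiled on 16 Affymetrix whole-transcript arrays, 4 in each of 4 groups of C57Bl/6 males. The groups were S534A mice treated with lipopolysaccharide (LPS, an endotoxin of bacteria) at 1 mg/kg, untreated S534A mice, WT mice given the same dose, and untreated WT mice. S534A is a germline knock-in in exon 10 of the gene for p65, the NF-kB subunit encoded by Rela, that turns a serine codon into an alanine codon. It was made in embryonic stem cells, freed of its selection cassette with FLPe, backcrossed to C57Bl6/J and bred to homozygosity, so all cells of the liver carry it. The series text gives the LPS dose for the untreated S534A group too, and the titles and source names, which call those samples untreated, were followed. The sources used here give neither the time after LPS nor the age of the mice, and no vehicle group is labelled, so handling, feeding and collection time cannot be told apart from LPS. Nothing in the labels ties each sample to its own animal. The spread behind the p-values is that between samples, and it may be technical.

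Cells make cholesterol from acetyl-CoA through mevalonate, isoprenoid pyrophosphates, squalene and lanosterol. When sterols in the endoplasmic reticulum run low, Scap carries the precursor of SREBP2 to the Golgi, where proteases release the part that enters the nucleus and switches on most genes of the pathway. When sterols are plentiful, Insig proteins hold Scap and SREBP2 back, and oxysterols act on the same hold and on LXR, the nuclear receptor that turns on sterol efflux. The liver is a main site of this synthesis and the site where cholesterol is turned into bile acids.

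All levels below are log2 values as deposited, so a difference of 1 is a doubling, and levels are compared within a gene only. Values of a group are given in the order of array numbers 1 to 4, which carry no rank. Changes are log2 differences ± SE with n = 4 arrays a group, and adjusted p-values come from limma with Benjamini-Hochberg adjustment over the 15908 genes and a threshold of 0.05. Rela had levels of 11.37 to 11.43 in S534A livers after LPS and 9.88 to 10.13 in untreated S534A livers, and of 11.31 to 11.47 in WT livers after LPS and 10.03 to 10.34 in untreated WT livers. Whether any probe covers the changed codon was not examined, and the level of Rela does not check the genotype. In bulk liver, fewer cells of a type and less RNA per cell cannot be told apart. Array medians lay between 6.25 and 6.42.

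SREBP2 binds sterol regulatory elements together with NF-Y, a factor that binds CCAAT boxes. The 250 bases before the start site were therefore searched in the RefSeq promoter table (GRCm38.p6), which holds 24 of the 29 genes in 30 windows. Fdps, Fdft1, Sqle, Npc1 and Stard4 are the others. The letters CCAAT, on either strand, were in 22 of the 30 member windows (73.3%), against 33.9% of all 32841 windows. Among the 24 genes, 22 had a match, and Mbtps1 and Scap had none. GGGCGG, the letters of an Sp1 site, were in 24 of the 30 windows (80%), against 32.7% of all windows. CACGTG, an E-box, was in 6 of the 30 (20%), against 6.02% of all. The sterol regulatory element searched as TCACNCCAC matched in 1 of the 30 member windows (3.33%), that of Hmgcs1, against 1.05% of all windows. Only these letters were searched, with any base at N, so looser forms of the element were not counted. The windows of all genes were not limited to genes tested on the arrays, and they were not matched to the members in base composition. These matches are descriptions of letters in the windows, and no binding was measured.

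Windows of 6 genes whose values are given in full below are printed 5′ to 3′ on the gene's strand, because they show how the CCAAT letters are spaced in members that fell and in the member that rose. Capitals mark CCAAT or its reverse complement ATTGG and, in Hmgcs1 alone, the sterol regulatory element. No match overlaps another. The positions are chr13:119690101-119690350 for Hmgcs1 on the plus strand, chr5:114444019-114444268 for Mvk on the plus strand, chr13:14063489-14063738 for Ggps1 on the minus strand, chr8:64733579-64733828 for Msmo1 on the minus strand, chrX:72918271-72918520 for Nsdhl on the plus strand and chr5:28071162-28071411 for Insig1 on the plus strand. Mvk held 5 matches of the CCAAT letters, Hmgcs1, Ggps1 and Msmo1 held 3 each, Nsdhl held 2 and Insig1 held 1.
Hmgcs1: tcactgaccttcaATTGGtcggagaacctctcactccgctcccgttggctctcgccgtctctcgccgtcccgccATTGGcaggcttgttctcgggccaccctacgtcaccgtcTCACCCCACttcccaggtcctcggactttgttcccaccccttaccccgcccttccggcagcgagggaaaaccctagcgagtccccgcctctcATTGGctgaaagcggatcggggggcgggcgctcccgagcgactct
Mvk: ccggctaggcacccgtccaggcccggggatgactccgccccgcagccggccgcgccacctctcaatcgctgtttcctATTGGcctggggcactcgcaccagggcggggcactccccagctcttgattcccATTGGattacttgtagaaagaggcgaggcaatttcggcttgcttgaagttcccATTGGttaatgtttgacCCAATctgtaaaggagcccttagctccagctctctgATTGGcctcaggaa
Ggps1: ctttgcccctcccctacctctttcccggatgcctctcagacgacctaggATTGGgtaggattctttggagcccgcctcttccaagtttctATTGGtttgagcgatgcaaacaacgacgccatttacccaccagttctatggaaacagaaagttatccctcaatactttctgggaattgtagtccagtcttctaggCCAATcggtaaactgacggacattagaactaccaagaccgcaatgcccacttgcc
Msmo1: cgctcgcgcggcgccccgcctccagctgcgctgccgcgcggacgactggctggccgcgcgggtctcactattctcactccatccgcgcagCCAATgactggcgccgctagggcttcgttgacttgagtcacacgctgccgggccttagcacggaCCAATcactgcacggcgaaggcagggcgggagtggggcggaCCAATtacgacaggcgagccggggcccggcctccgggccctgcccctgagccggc
Nsdhl: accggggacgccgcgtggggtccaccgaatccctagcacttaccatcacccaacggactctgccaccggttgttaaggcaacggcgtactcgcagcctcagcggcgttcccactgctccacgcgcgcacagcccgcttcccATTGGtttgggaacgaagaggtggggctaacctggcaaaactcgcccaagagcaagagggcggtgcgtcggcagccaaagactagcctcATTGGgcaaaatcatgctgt
Insig1: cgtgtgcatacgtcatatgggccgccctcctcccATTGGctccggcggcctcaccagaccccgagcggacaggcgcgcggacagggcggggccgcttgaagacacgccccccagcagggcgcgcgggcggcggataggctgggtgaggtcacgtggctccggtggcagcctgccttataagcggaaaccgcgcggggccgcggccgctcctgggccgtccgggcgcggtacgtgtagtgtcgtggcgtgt

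After LPS most of the pathway fell in both genotypes. Because the genes were chosen with earlier results known, their shares beside those of all genes describe this list only. In S534A livers 25 of the 29 genes were lower than in untreated S534A livers, 1 was higher and 3 did not pass the test, against a background of 31.2% of all genes lower and 14.2% higher. In WT livers 23 were lower, 1 was higher and 5 did not pass, against 29.9% of all genes lower and 14.9% higher. The median change of the 29 genes was −0.87 in S534A and −0.58 in WT, while that of all genes was −0.03 in S534A and −0.05 in WT. Counting arrays rather than tests, 23 genes in S534A had all 4 LPS arrays below all 4 untreated arrays (31.7% of all genes), and 21 did so in WT (25.6% of all genes). Ggps1 was the gene that rose in both genotypes.

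**Figure D1:**
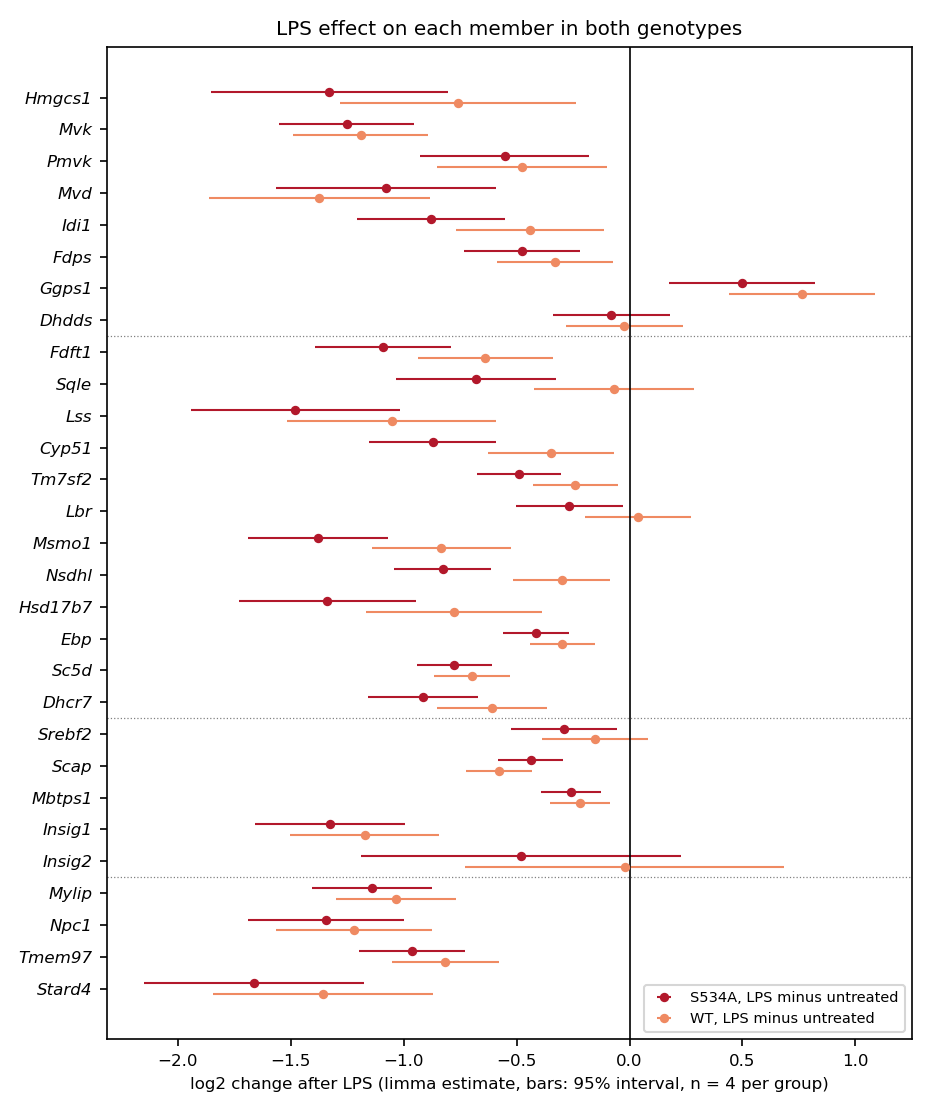
Change after LPS of the 29 genes (log2, LPS minus untreated) in S534A and WT livers, by role, with 95% intervals from the limma fit (n = 4 arrays a group). Stard4 in S534A (−1.66) and Mvd in WT (−1.37) have the lowest estimates of their genotype, and Ggps1 stands above 0 in both.

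The first arm of the pathway runs to farnesyl and geranylgeranyl pyrophosphate, and 6 of its 8 genes tested fell in each genotype. Hmgcs1, which condenses acetyl units into the precursor of mevalonate, had levels of 9.83, 11.11, 10.28 and 11.11 in S534A livers after LPS, against 11.84, 11.63, 12.29 and 11.88 in untreated S534A livers. Its levels were 10.92, 11.47, 10.94 and 11.40 in WT livers after LPS, against 12.29, 11.74, 12.00 and 11.74 in untreated WT livers. Every LPS array lay below every untreated array of its genotype, and S534A arrays 1 and 3 were the lowest of all 16. The change was −1.33 ± 0.25 in S534A (adjusted p = 0.000276) and −0.76 ± 0.25 in WT (adjusted p = 0.0183).

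Mvk, which adds the first phosphate to mevalonate, had levels of 7.91, 8.58, 8.17 and 8.41 in S534A livers after LPS and 9.48, 9.36, 9.71 and 9.53 in untreated S534A livers. In WT livers its levels were 8.37, 8.38, 8.30 and 8.75 after LPS and 9.92, 9.41, 9.60 and 9.63 without treatment. The groups were apart by more than their own spread in both genotypes, with changes of −1.25 ± 0.14 in S534A (adjusted p = 1.59e-06) and −1.19 ± 0.14 in WT (adjusted p = 2.81e-06). Mvd, the decarboxylase that yields isopentenyl pyrophosphate, stood at 7.33, 8.18, 7.42 and 8.12 after LPS and 8.80, 8.74, 9.02 and 8.82 untreated in S534A livers. It stood at 7.78, 8.24, 7.75 and 8.07 after LPS and 10.08, 9.11, 9.31 and 8.84 untreated in WT livers. Its changes were −1.08 ± 0.23 in S534A (adjusted p = 0.000946) and −1.37 ± 0.23 in WT (adjusted p = 0.000109), and untreated WT array 1 was the highest of the 16 arrays.

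The remaining falls in this arm were smaller. Idi1, the isomerase of isopentenyl pyrophosphate, changed by −0.88 ± 0.15 in S534A and −0.44 ± 0.15 in WT. Fdps, which joins the isoprenoid units into farnesyl pyrophosphate, changed by −0.48 ± 0.12 and −0.33 ± 0.12 in the same order of genotypes. Pmvk, the second kinase of the arm, changed by −0.55 ± 0.18 in S534A, where the groups overlapped, and −0.47 ± 0.18 in WT. Adjusted p-values of these 3 genes lay between 0.000167 and 0.017 in S534A and between 0.0282 and 0.0383 in WT. Dhdds, a subunit of the prenyltransferase that starts dolichol synthesis, did not pass the test, with changes of −0.08 ± 0.12 in S534A (95% interval −0.34 to 0.18) and −0.02 ± 0.12 in WT (95% interval −0.28 to 0.23).

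Ggps1 makes geranylgeranyl pyrophosphate, an isoprenoid attached to proteins, on a branch away from sterols. Its levels were 8.71, 8.41, 8.48 and 8.46 in S534A livers after LPS, against 8.14, 8.09, 7.94 and 7.89 in untreated S534A livers. WT livers had 8.64, 8.59, 8.19 and 8.36 after LPS, against 7.33, 7.60, 7.55 and 8.24 untreated. The S534A groups did not overlap (16.4% of all genes had all LPS arrays above), whereas WT LPS array 3 lay below untreated WT array 4. The rise was 0.50 ± 0.15 in S534A (adjusted p = 0.0129) and 0.77 ± 0.15 in WT (adjusted p = 0.000541). With each array centred on its median, the call in S534A was lost (adjusted p = 0.0523).

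The second arm runs from squalene to cholesterol, and here 11 of 12 genes fell in S534A livers and 10 of 12 in WT livers. Fdft1, which commits farnesyl pyrophosphate to squalene, had levels of 10.91, 11.48, 11.31 and 11.80 in S534A livers after LPS, against 12.45, 12.43, 12.51 and 12.47 in untreated S534A livers. Its WT levels were 11.58, 11.92, 11.51 and 11.82 after LPS, against 12.51, 12.19, 12.34 and 12.34 untreated. Neither pair of groups overlapped, and the changes were −1.09 ± 0.14 in S534A (adjusted p = 7.56e-06) and −0.64 ± 0.14 in WT (adjusted p = 0.00136).

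Sqle, the squalene epoxidase, is a gene called in S534A but not in WT. S534A livers had levels of 9.91, 10.52, 10.04 and 10.70 after LPS, against 11.09, 10.99, 10.85 and 10.96 untreated, with no overlap. WT livers had 10.69, 11.22, 10.43 and 10.82 after LPS, against 11.06, 10.75, 10.83 and 10.80 untreated, with LPS arrays on both sides of the untreated ones. The change was −0.68 ± 0.17 in S534A (adjusted p = 0.00299) and −0.07 ± 0.17 in WT (adjusted p = 0.792, 95% interval −0.43 to 0.29). The test of the difference between these changes is given with the interaction below.

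Lss, which closes the ring to form lanosterol, had levels of 8.30, 9.10, 8.25 and 9.12 in S534A livers after LPS and 10.03, 10.16, 10.32 and 10.19 in untreated S534A livers. WT levels were 8.76, 9.65, 8.66 and 9.21 after LPS and 10.41, 10.10, 9.98 and 9.99 untreated. In both genotypes arrays 1 and 3 of the LPS group were the lower pair. The change was −1.48 ± 0.22 in S534A (adjusted p = 2.94e-05) and −1.05 ± 0.22 in WT (adjusted p = 0.000755). Cyp51, the lanosterol demethylase, stood at 9.99, 10.52, 10.12 and 10.53 after LPS and 11.25, 11.17, 11.07 and 11.15 untreated in S534A livers. In WT livers it stood at 10.45, 10.81, 10.29 and 10.70 after LPS and 10.91, 10.82, 10.77 and 11.14 untreated, and these 2 groups overlapped. Its changes were −0.87 ± 0.13 in S534A (adjusted p = 4.01e-05) and −0.35 ± 0.13 in WT (adjusted p = 0.0418).

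Msmo1, the oxidase that starts removal of the methyl groups on ring carbon, had levels of 10.63, 11.29, 10.87 and 11.50 in S534A livers after LPS, against 12.56, 12.51, 12.33 and 12.41 untreated. WT levels were 11.36, 11.75, 11.34 and 11.49 after LPS, against 12.41, 12.31, 12.23 and 12.33 untreated. Changes were −1.38 ± 0.15 in S534A (adjusted p = 7.39e-07) and −0.83 ± 0.15 in WT (adjusted p = 0.000162), with no overlap in either genotype. Nsdhl, the dehydrogenase of the same demethylation, had levels of 10.68, 11.04, 10.92 and 11.20 in S534A livers after LPS, against 11.78, 11.81, 11.79 and 11.76 untreated. In WT livers these were 11.21, 11.52, 11.24 and 11.44 after LPS, against 11.67, 11.58, 11.54 and 11.82 untreated. Its LPS arrays lay below the untreated ones by a narrow margin in WT and a wide one in S534A, with changes of −0.83 ± 0.10 in S534A (adjusted p = 3.88e-06) and −0.30 ± 0.10 in WT (adjusted p = 0.0226).

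Hsd17b7, the ketone reductase that completes that demethylation, changed by −1.34 ± 0.18 in S534A and −0.78 ± 0.18 in WT. The estimates of the late enzymes were closer to 0 than those of Hsd17b7, but not than those of every earlier enzyme. Ebp, which moves a ring double bond, changed by −0.42 ± 0.07 in S534A and −0.30 ± 0.07 in WT. Sc5d, the desaturase that follows, changed by −0.78 ± 0.08 and −0.70 ± 0.08, and Dhcr7, the last reductase, by −0.91 ± 0.11 and −0.61 ± 0.11, in S534A and WT in that order. All 4 passed the test in both genotypes with no overlap of groups. Tm7sf2 and Lbr encode reductases of the same sterol step. Tm7sf2 changed by −0.49 ± 0.09 in S534A (adjusted p = 0.000204) and −0.24 ± 0.09 in WT (adjusted p = 0.0353). Lbr, which is also a receptor of the nuclear lamina, did not pass, with −0.27 ± 0.11 in S534A (adjusted p = 0.063) and 0.04 ± 0.11 in WT (adjusted p = 0.835). In S534A it passed at the same threshold under 6 alternatives, with adjusted p-values between 0.019 and 0.0496.

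**Figure D2:**
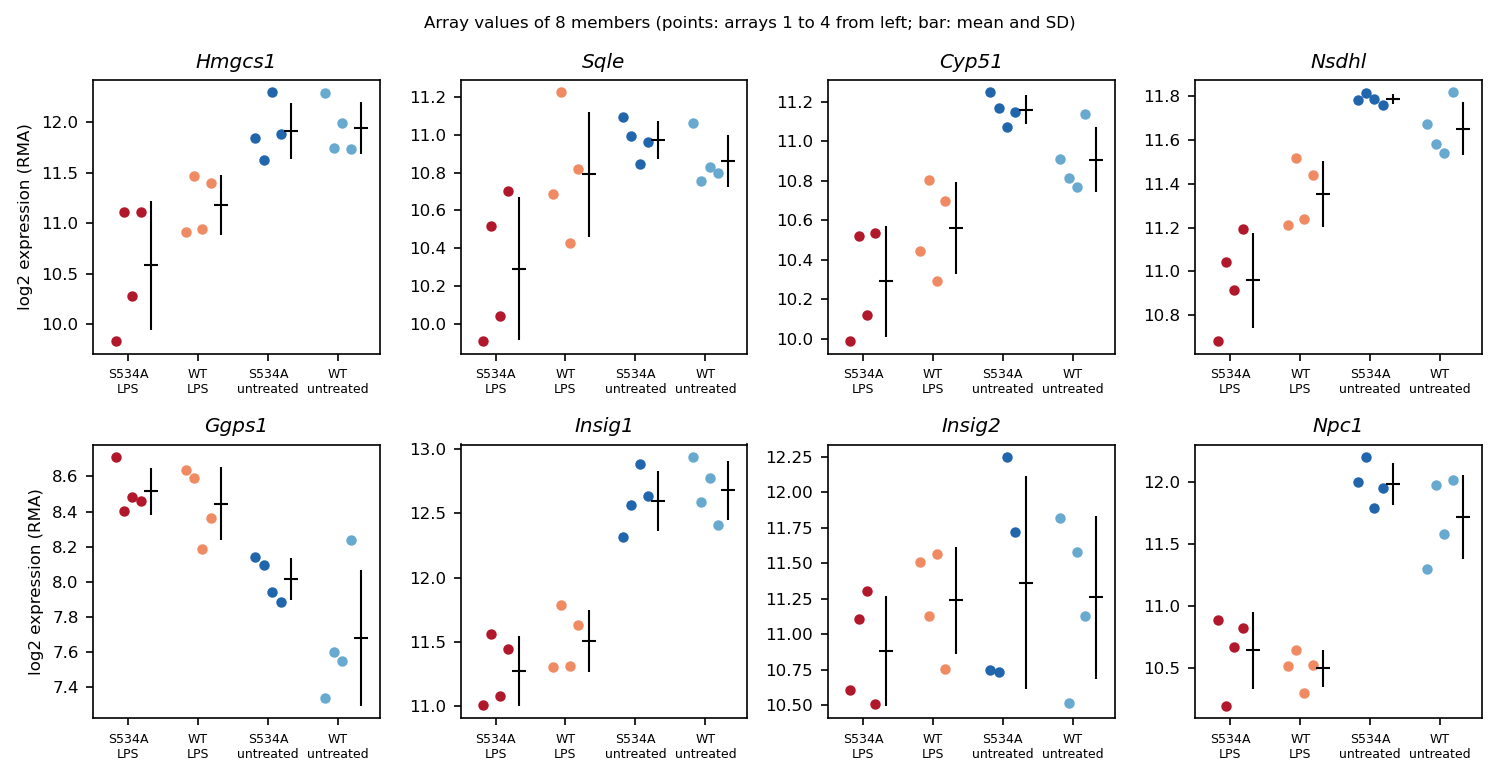
Levels (log2, as deposited) of selected genes in each array, with points for arrays 1 to 4 of a group from left to right and bars for mean ± SD. For Hmgcs1, Sqle, Cyp51 and Nsdhl, all LPS arrays lie below all untreated arrays in S534A livers, and arrays 1 and 3 are the lower pair in both LPS groups.

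Among the genes that control SREBP2, Insig1 had the largest estimates of change. Insig1, itself a target of SREBP2 and an anchor of Scap, had levels of 11.00, 11.56, 11.08 and 11.44 in S534A livers after LPS, against 12.31, 12.57, 12.88 and 12.63 untreated. WT livers had 11.30, 11.79, 11.31 and 11.63 after LPS, against 12.94, 12.59, 12.78 and 12.41 untreated. The changes were −1.33 ± 0.16 in S534A (adjusted p = 2.56e-06) and −1.17 ± 0.16 in WT (adjusted p = 9.98e-06), and the groups were well apart. Srebf2, the gene for SREBP2, moved little. Its levels were 9.28, 9.56, 9.14 and 9.56 after LPS and 9.61, 9.54, 9.89 and 9.66 untreated in S534A livers, and 9.41, 9.73, 9.40 and 9.67 after LPS and 9.77, 9.65, 9.83 and 9.58 untreated in WT livers. Groups overlapped in both genotypes, and the change was −0.29 ± 0.11 in S534A (adjusted p = 0.0407) and −0.15 ± 0.11 in WT (adjusted p = 0.299). At the same threshold, the S534A call was lost under 9 alternatives, including leaving out S534A LPS array 1 or 3 or untreated S534A array 1, 3 or 4, with adjusted p-values of 0.0516 to 0.148.

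Scap, the escort of SREBP2, stood at 10.41, 10.36, 10.22 and 10.40 after LPS and 10.77, 10.76, 10.79 and 10.82 untreated in S534A livers, and at 10.31, 10.24, 10.08 and 10.21 after LPS and 10.65, 10.85, 10.80 and 10.84 untreated in WT livers. It fell in both, with no overlap of groups and changes of −0.44 ± 0.07 in S534A (adjusted p = 5.53e-05) and −0.58 ± 0.07 in WT (adjusted p = 3.01e-06). Mbtps1, the first of the proteases that cut SREBP2, changed by −0.26 ± 0.06 in S534A (adjusted p = 0.00277) and −0.22 ± 0.06 in WT (adjusted p = 0.00863).

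Insig2, the second anchor protein, which unlike Insig1 is not driven by SREBP2, was the member of largest SD in untreated livers, with an SD of 0.751 in S534A and 0.574 in WT. Its levels were 10.61, 11.11, 11.31 and 10.51 in S534A livers after LPS, against 10.75, 10.74, 12.25 and 11.72 untreated, and 11.51, 11.13, 11.57 and 10.76 in WT livers after LPS, against 11.82, 10.52, 11.58 and 11.13 untreated. Untreated S534A arrays 3 and 4 and untreated WT arrays 1 and 3 were the high ones. Dbp, an output gene of the circadian clock chosen after its values were seen, had levels of 11.37, 11.50, 7.33 and 10.98 in untreated S534A livers and 8.45, 11.45, 7.85 and 11.80 in untreated WT livers, and Arntl, a core clock gene chosen likewise, had 6.43, 6.43, 9.71 and 8.33 and 9.27, 6.40, 9.17 and 6.35. Untreated S534A array 3 and untreated WT arrays 1 and 3 were thus low in Dbp and high in Arntl. Members went both ways in those arrays: within the untreated groups Hmgcs1 was highest there, while Npc1, Stard4 and Tmem97 were lowest there. After LPS, Dbp had levels of 8.53, 7.22, 8.36 and 8.87 in S534A livers and 7.87, 9.09, 7.55 and 8.71 in WT livers. Every LPS array was thus lower in Dbp than untreated S534A arrays 1, 2 and 4 and untreated WT arrays 2 and 4. Arntl after LPS had 7.02, 8.02, 7.11 and 6.61 in S534A livers and 7.12, 7.01, 7.51 and 7.16 in WT livers. The LPS change of Insig2 did not pass the test, with −0.48 ± 0.33 in S534A (adjusted p = 0.264) and −0.02 ± 0.33 in WT (adjusted p = 0.97). With a clock score as covariate, an alternative added after the data were seen, it passed in S534A (adjusted p = 0.0115).

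Of the genes named for sterol uptake, transport and storage, the 4 tested were Stard4, Npc1, Mylip and Tmem97, since the storage gene Soat2 was not analysed. All 4 fell in both genotypes, with a median change of −1.24 in S534A and −1.13 in WT. Stard4, a cytosolic sterol carrier and SREBP2 target, had levels of 8.75, 8.93, 8.36 and 9.40 in S534A livers after LPS, against 10.80, 10.54, 10.20 and 10.55 untreated. WT livers had 8.73, 9.72, 8.89 and 9.11 after LPS, against 10.22, 10.55, 10.20 and 10.91 untreated. The groups did not overlap, and the change was −1.66 ± 0.23 in S534A (adjusted p = 1.46e-05) and −1.35 ± 0.23 in WT (adjusted p = 0.000121).

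Npc1, which exports cholesterol from lysosomes, stood at 10.88, 10.19, 10.67 and 10.82 after LPS and 12.00, 12.20, 11.79 and 11.95 untreated in S534A livers, and at 10.52, 10.65, 10.29 and 10.53 after LPS and 11.30, 11.97, 11.58 and 12.02 untreated in WT livers. Here array 2, not array 1 or 3, was the lowest S534A array after LPS. Its changes were −1.34 ± 0.16 in S534A (adjusted p = 3.54e-06) and −1.22 ± 0.16 in WT (adjusted p = 1.01e-05). Mylip, an E3 ubiquitin ligase whose transcription is driven by LXR, ran from 7.62 to 8.07 after LPS and from 8.72 to 9.05 untreated in S534A livers, and from 7.56 to 8.14 after LPS and from 8.72 to 8.98 untreated in WT livers. No groups of either genotype overlapped, with changes of −1.14 ± 0.12 in S534A (adjusted p = 1.11e-06) and −1.03 ± 0.12 in WT (adjusted p = 3.35e-06). Tmem97, a membrane protein of the endoplasmic reticulum that binds sterols, changed by −0.96 ± 0.11 in S534A and −0.81 ± 0.11 in WT.

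The second probe sets of Idi1, Fdft1 and Tmem97 fell too. Their changes were −0.91 ± 0.14, −1.28 ± 0.15 and −1.06 ± 0.12 in S534A, and −0.44 ± 0.14, −0.76 ± 0.15 and −0.87 ± 0.12 in WT, with adjusted p-values up to 5.02e-05 in S534A and 0.0177 in WT. Several WT calls were near the threshold. Cyp51, Tm7sf2, Hmgcs1, Pmvk, Idi1, Fdps, Nsdhl and Mbtps1 lost the call in WT under at least 1 alternative at the same threshold, with adjusted p-values up to 0.237, and the first 7 of these lost it when WT LPS array 1 or array 3 was left out. Their estimates stayed below 0, for instance −0.67 without array 1 and −0.68 without array 3 for Hmgcs1 (−0.76 with all arrays), and −0.31 and −0.26 for Cyp51 (−0.35 with all arrays). The WT count was then 16 lower, against 23 with all arrays. It was 18 without untreated WT array 1 or array 4, 20 without untreated WT array 3, and 17 without the 3 untreated arrays low in Dbp. Cyp51 also lost its WT call without untreated S534A array 2 or array 4, through the shared estimate of the spread. In S534A, Pmvk lost its call without S534A LPS array 3 or untreated S534A array 3, with adjusted p-values of 0.0602 to 0.0705.

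**Figure D3:**
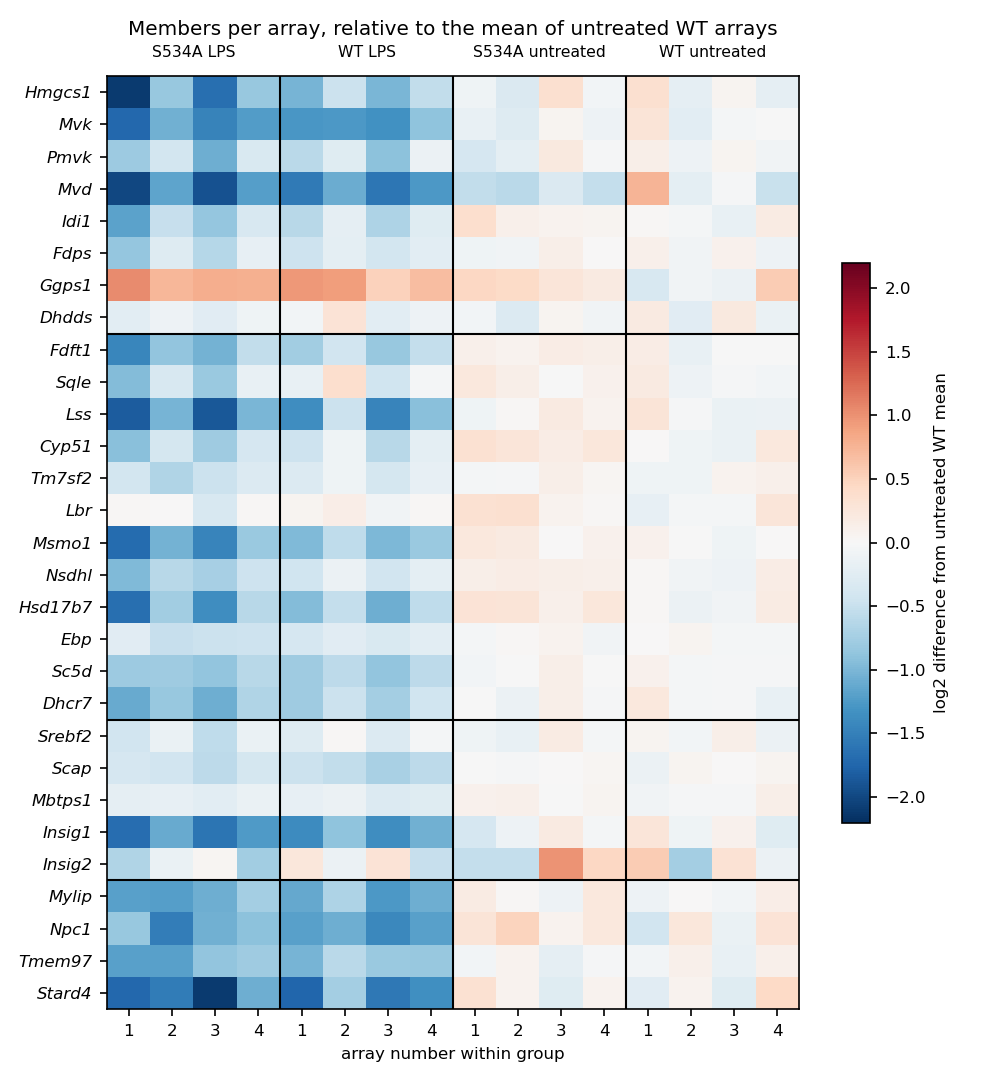
Level of each of the 29 genes in each of the 16 arrays, as log2 difference from the mean of the untreated WT arrays, with genes ordered by role and S534A groups left of WT groups. LPS arrays of both genotypes are mostly below 0, Ggps1 is above 0 after LPS, and Insig2 differs among the untreated arrays.

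Neighbouring pathways, each given as a list of genes, moved as follows after LPS, to be read against the shares of all genes given above (31.2% lower and 14.2% higher in S534A, 29.9% lower and 14.9% higher in WT). Of 17 genes of SREBP1 and fatty acid synthesis, 12 fell and none rose in S534A, and 9 fell and 1 rose in WT. Srebf1, the gene for SREBP1, changed by −1.39 ± 0.21 in S534A and −1.68 ± 0.21 in WT. Mid1ip1, an activator of acetyl-CoA carboxylase, changed by −2.26 ± 0.25 and −2.35 ± 0.25, Gpam, the first acyltransferase of triglyceride synthesis, by −1.56 ± 0.11 and −1.76 ± 0.11, and Fads1, a fatty acid desaturase, by −0.42 ± 0.08 and −0.42 ± 0.08. Of 9 genes of LXR and sterol efflux, 5 fell and 1 rose in each genotype. The one that rose was Abca1, the transporter that loads cholesterol onto apolipoproteins, by 1.42 ± 0.09 in S534A and 1.55 ± 0.09 in WT. Lpcat3, a phospholipid acyltransferase, had the lowest estimates of that list, −1.58 ± 0.10 and −1.38 ± 0.10. Nr1h3, which encodes an LXR, changed by −0.44 ± 0.08 and −0.58 ± 0.08, and Abcg1, a second efflux transporter, by −0.52 ± 0.08 and −0.61 ± 0.08.

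The enzymes that turn cholesterol into oxysterols and bile acids included 3 that fell and 1 that rose of 8 tested in each genotype, shares near the background of all genes. The single genes differed widely. Ch25h, which makes an oxysterol that holds SREBP2 back, rose by 3.36 ± 0.19 in S534A (adjusted p = 4.72e-10) and 3.21 ± 0.19 in WT (adjusted p = 8.2e-10). Cyp7a1, which catalyses the first and limiting step to bile acids, had levels of 6.56, 6.00, 6.11 and 6.31 in S534A livers after LPS, against 12.63, 12.75, 11.13 and 12.43 untreated, and 5.84, 7.67, 6.13 and 6.81 in WT livers after LPS, against 10.71, 12.26, 11.50 and 12.00 untreated. Its change was −5.99 ± 0.40 in S534A (adjusted p = 3.05e-09) and −5.01 ± 0.40 in WT (adjusted p = 3.03e-08), larger than that of any member. Cyp8b1, the hydroxylase that sets the kind of bile acid, changed by −1.85 ± 0.15 and −1.30 ± 0.15, and Hsd3b7, an enzyme of the shared steps, by −0.83 ± 0.15 and −0.75 ± 0.15.

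Among 9 factors of sterol sensing and regulated degradation, 4 fell and 1 rose in S534A, and 4 fell and 2 rose in WT. The median of this list was −0.05 in both genotypes, near that of all genes. Erlin2 and Erlin1, partners in degradation from the endoplasmic reticulum, changed by −0.86 ± 0.10 and −0.77 ± 0.14 in S534A and by −0.81 ± 0.10 and −0.76 ± 0.14 in WT, and Pgrmc2 by −0.57 ± 0.09 in S534A and −0.64 ± 0.09 in WT. Rnf139, a ubiquitin ligase, rose by 0.42 ± 0.09 in S534A and 0.57 ± 0.09 in WT. Of 11 further genes of sterol transport, 6 fell and 1 rose in each genotype, among them Osbpl2, with −1.07 ± 0.13 in S534A and −1.06 ± 0.13 in WT, Lipa, the lysosomal lipase, with −0.82 ± 0.10 and −0.60 ± 0.10, Stard5 with −0.68 ± 0.12 and −0.53 ± 0.12, and Gramd1b with −0.45 ± 0.08 and −0.35 ± 0.08.

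On the branches that use the isoprenoids, 9 of 13 genes fell and 1 rose in S534A, and 7 fell and 2 rose in WT. Pggt1b, the subunit that attaches the geranylgeranyl group made by Ggps1, rose by 0.72 ± 0.08 in S534A (adjusted p = 1.81e-06) and 0.86 ± 0.08 in WT (adjusted p = 2.38e-07). Rabggta, a subunit of the transferase for Rab proteins, fell by contrast, with −0.62 ± 0.07 in S534A and −0.59 ± 0.07 in WT. Srd5a3 and Dolk, enzymes of dolichol synthesis, changed by −0.94 ± 0.10 and −0.62 ± 0.09 in S534A and by −0.72 ± 0.10 and −0.67 ± 0.09 in WT.

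Markers of several liver cell types moved with LPS too. Among all genes, 31.2% were lower and 14.2% higher in S534A, and 29.9% were lower and 14.9% higher in WT. Of 9 hepatocyte markers tested, 1 rose in S534A and 2 rose in WT, and none fell. Their summed linear level, in units of 10 to the power of 3, was 124 to 129 in S534A livers after LPS and 122 to 128 in untreated S534A livers, and 125 to 129 in WT livers after LPS and 123 to 130 in untreated WT livers. Of 11 Kupffer cell markers 9 fell and 1 rose in each genotype, with sums of 2.86 to 3.86 in S534A after LPS, 6.66 to 9.72 in untreated S534A, 3.57 to 4.51 in WT after LPS and 7.98 to 11.4 in untreated WT. All 9 neutrophil and monocyte markers tested rose in each genotype, with sums of 2.70 to 3.64 in S534A after LPS, 0.524 to 0.589 in untreated S534A, 2.41 to 4.24 in WT after LPS and 0.542 to 0.579 in untreated WT. Of 10 sinusoidal endothelial markers 8 fell and 2 rose in each genotype, of 10 stellate and fibroblast markers 7 fell, and of 5 lymphocyte markers 2 fell. Of 7 adrenal, pancreas and fat markers 1 rose in each genotype. The hepatocyte and adrenal, pancreas and fat rises and the lymphocyte falls cannot be told apart from the all-gene shares in lists this short. Hepatocyte markers had mean log2 levels of 13.67 to 13.77 across the arrays, near the top of the range of values. Compression of signal there was not tested, so their flat sums do not show that hepatocytes were unchanged. The part of any of these cell types in the change of the cholesterol genes was not tested.

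The S534A substitution was compared with WT in 3 ways, after LPS, untreated, and as the interaction, which is the LPS change in S534A minus that in WT. After LPS no member passed the test, nor did any of the 15908 genes (0%), with a lowest adjusted p from limma of 1. At an unadjusted p under 0.05 there were 7 of 29 members and 3% of all genes. Estimates for 25 of the 29 members lay below 0, against 51.2% of all genes, with a median of −0.20 for members and 0.00 for all genes. All 12 squalene and sterol enzymes had estimates below 0, with a median of −0.32. The lean was not tested as particular to these genes, and all 11 Kupffer cell markers also had estimates below 0 in this comparison, with a median of −0.24 and 3 at an unadjusted p under 0.05. In untreated livers 9 of those 11 markers had estimates below 0, with a median of −0.15. The part of Kupffer cells in the differences of the cholesterol genes was not tested.

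**Figure D4:**
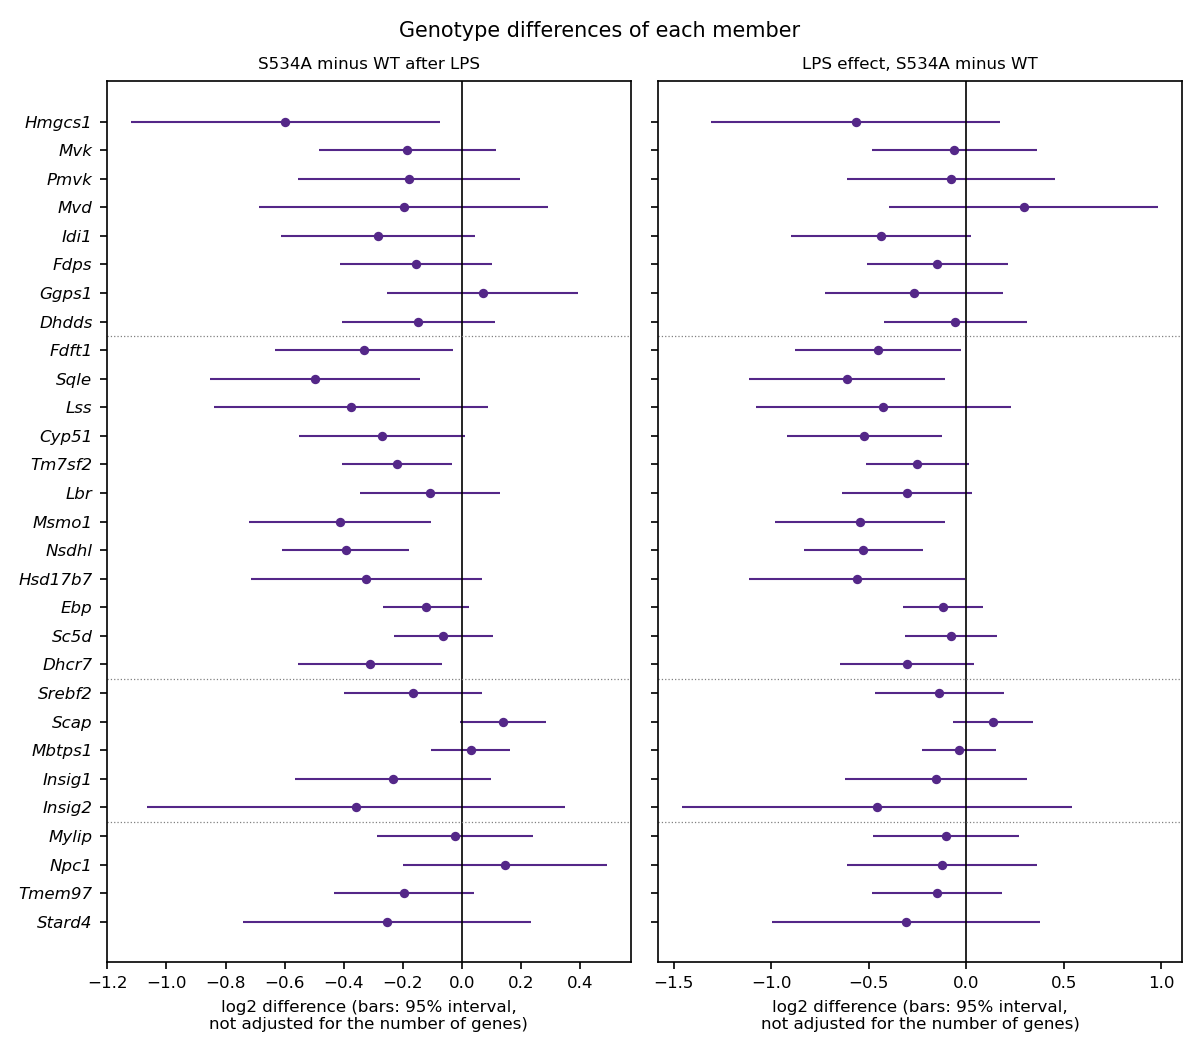
S534A minus WT after LPS and the interaction (log2) for the 29 genes, by role, with 95% intervals. Most estimates lie below 0, and no gene passed the test after adjustment in either comparison.

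Nsdhl was the member whose S534A and WT arrays after LPS did not overlap, with 10.68 to 11.20 in S534A and 11.21 to 11.52 in WT (1.29% of all genes had all S534A arrays below). Its difference was −0.39 ± 0.10, with an unadjusted p of 0.00126 and an adjusted p of 1. The next by p were Sqle, with −0.50 ± 0.17 (unadjusted p = 0.00889), and Msmo1, with −0.41 ± 0.15 (unadjusted p = 0.0118). Dhcr7 had −0.31 ± 0.11, Tm7sf2 −0.22 ± 0.09, Hmgcs1 −0.60 ± 0.25 and Fdft1 −0.33 ± 0.14. The 4 estimates above 0 were those of Npc1 (0.14), Scap (0.14), Ggps1 (0.07) and Mbtps1 (0.03). These differences share their arrays, so the genes are not independent of each other. The median for members was −0.12 without WT LPS array 2 and −0.14 without S534A LPS array 1.

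The interaction had no call among all genes (0%), with a lowest adjusted p of 0.875. Estimates lay below 0 for 27 of the 29 members, against 48.6% of all genes, the exceptions being Mvd (0.29 ± 0.33) and Scap (0.14 ± 0.10). At an unadjusted p under 0.05 in limma there were 6 members, against 4.82% of all genes. They were Nsdhl (−0.53 ± 0.14), Cyp51 (−0.52 ± 0.19), Msmo1 (−0.55 ± 0.21), Sqle (−0.61 ± 0.24), Fdft1 (−0.45 ± 0.20) and Hsd17b7 (−0.56 ± 0.26), all of them enzymes from squalene to cholesterol. Nsdhl had the lowest unadjusted p among them, 0.00197, with an adjusted p of 0.925 in limma. No member holds after adjustment, so the fall of Sqle in S534A and its absence of a call in WT are not shown to differ. The median interaction of the members was −0.25 with all arrays and −0.11 without WT LPS array 2.

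In untreated livers no member passed the test, against 2 of all genes (0.0126%). With array weights the calls among all genes were 215 higher and 155 lower, and still 0 members. At an unadjusted p under 0.05 in limma there were 2 of 29 members, Mvd and Ggps1, against 8.88% of all genes, so the members' share is not above the background. Of the 29 members 12 had estimates below 0, against 50.8% of all genes, and the median was 0.05. Estimates ran from −0.49 for Mvd to 0.34 for Ggps1, the first with an unadjusted p of 0.0484 and the second with one of 0.0426.

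Within the LPS groups the 20 enzymes, taken as a mean, differed from array to array. Their mean difference from untreated WT was −0.99, −0.57, −0.92 and −0.47 in S534A arrays 1 to 4 after LPS, and −0.60, −0.27, −0.69 and −0.37 in WT arrays 1 to 4 after LPS. In untreated arrays it lay between −0.10 and 0.12. Arrays 1 and 3 were the lower pair in both LPS groups, though not for every enzyme. In S534A livers after LPS, Ebp was highest in array 1 (11.40) and Tm7sf2 was lowest in array 2 (11.02). Of the 29 members, 23, 7, 26 and 3 were below their group mean in S534A LPS arrays 1 to 4, and 23, 2, 27 and 9 in WT LPS arrays 1 to 4, while 43.9% to 57.2% of all genes were below theirs in any of these arrays. In untreated arrays 1 to 4 the counts were 17, 17, 12 and 15 in S534A and 9, 23, 20 and 15 in WT. The median SD of the members was 0.279 in S534A after LPS and 0.204 in WT after LPS, and 0.119 in untreated S534A and 0.137 in untreated WT. Over all genes it was 0.108 in S534A after LPS and 0.145 in WT after LPS, and 0.105 in untreated S534A and 0.149 in untreated WT. Array medians over all genes were 6.39, 6.42, 6.40 and 6.42 in S534A LPS arrays 1 to 4, where arrays 1 and 3 were again the lower pair, and 6.42, 6.37, 6.39 and 6.41 in WT LPS arrays 1 to 4, where they were not. The labels name no batch, and a technical part in this pattern was not tested.

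**Figure D5:**
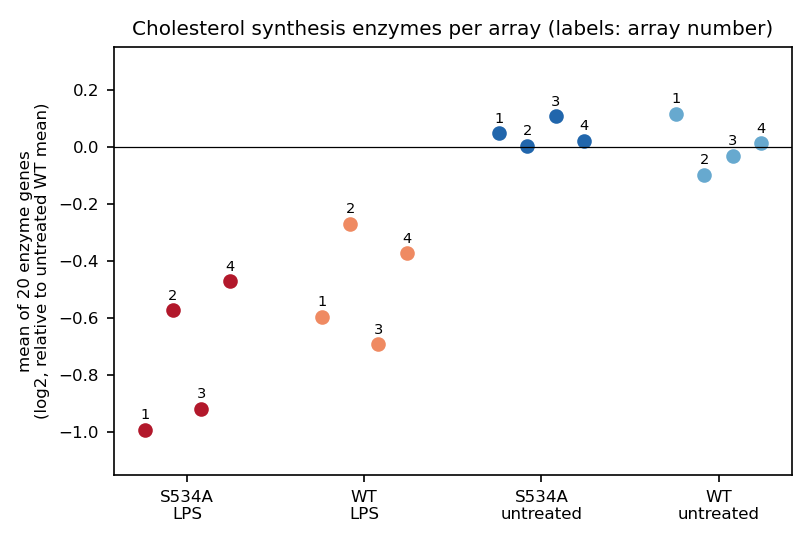
Mean level of the 20 enzymes in each array, as log2 difference from untreated WT, with array numbers beside the points. LPS arrays run from −0.99 to −0.47 in S534A and from −0.69 to −0.27 in WT, and arrays 1 and 3 are the lower pair in both.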

How the data were processed

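The values the authors deposited are log2 levels of probe sets. The submitters' processing notes name RMA, with no version or probe set level stated. The labels' protocols give column purification of RNA and amplification with biotin labelling. Values ran from 3.49 to 14.54 with 0 missing. Of 35556 probe sets, 21789 carry 1 gene symbol in the platform annotation, 1621 several and 12146 none. To pass the filter on low values, a probe set had to exceed its array's 30th percentile in 4 or more of the 16 arrays. The probe set of highest mean represented a gene, which left 15908 genes. Scanner files were not used, so signal over background is unknown and precision rests on how many arrays there are (median SE of an LPS change 0.0991, of the interaction 0.140).

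Groups came from the titles. A model of 4 group means with no covariate was fitted to all genes (limma 3.58.1, R 4.3.3, with moderated variances; degrees of freedom were 12 residual and 4.28 prior). Tests were two-sided with Benjamini-Hochberg adjustment, and the code was tested on simulated data. Marker sums add the levels after conversion to the linear scale. Named genes were all members, Rela and, from each other list, up to 4 genes of lowest p in WT after LPS; Dbp and Arntl were added with their values known. The members and lists were chosen with earlier results of these data known. The alternatives covered filters, probe set averaging, scaling, array weights, the moderation step, a block for the replicate number, fits to only the groups compared, stricter thresholds and each array left out. Added after seeing the data were a clock score as covariate (the mean level of Dbp, Tef and the 3 Per genes, less Arntl), omission of untreated S534A array 3 and untreated WT arrays 1 and 3, and separate tests of each probe set of Idi1, Fdft1 and Tmem97. Promoter letters were read from RefSeq's promoter table for GRCm38.p6. Plots were made in Python 3.11.15 with matplotlib 3.10.9.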

Additional observations from a re-analysis of the deposited data

Results flagged for a closer look

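In 4 of the 116 groups of 4 arrays checked (29 genes in 4 groups), 1 array stood far from the other 3. The measure is the gap to the nearest array divided by the group's range, and Dixon's 95% critical value was passed, which chance does in about 1 in 20 groups. Lbr in S534A livers after LPS had array 3 at 7.84, below the nearest array at 8.20 (gap share 0.923). Idi1 in untreated S534A livers had array 1 at 11.90, above the nearest at 11.63 (0.846). Mvk in WT livers after LPS had array 4 at 8.75, above the nearest at 8.38 (0.831). Sc5d in untreated WT livers had array 1 at 12.70, above the nearest at 12.58 (0.847). The direction of the Mvk, Idi1 and Sc5d changes after LPS was kept without each of these arrays.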

How the results depend on the processing

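No called change of a member reversed its direction under any alternative run, and no member passed in a genotype comparison or the interaction under any of them. After LPS, the count of members higher in S534A was 0, against 1, with arrays centred on their median, at an adjusted p under 0.01 and with a minimum of 1.5-fold; the count lower in WT was 14, against 23, with the 1.5-fold minimum. Leaving out each array in turn gave 23 to 26 lower and 1 higher in S534A, 16 to 23 lower and 1 higher in WT, and 0 in each direction in the 3 other comparisons. With the replicate number as a block, the counts were 24 lower and 1 higher in S534A, 23 lower and 1 higher in WT, and 0 in the other comparisons. Deviations of same-numbered arrays over all genes correlated at −0.492 to 0.588 over 24 pairs, 9 above 0.1. Pairs of unlike number reached −0.589 and 0.57. An array correlated best with its own number in another group in 15 of 48 cases, with 4 arrays to choose from each time. These correlations cannot decide whether the numbers pair the arrays, since each deviation is from a mean of only 4 arrays. The labels do not say what the number stands for. Without the 3 untreated arrays low in Dbp, 24 were lower in S534A and 17 in WT, and with the clock score 27 and 23. Centring on array medians moved the median change of all genes to −0.13 in S534A (−0.03 as deposited) and −0.16 in WT (−0.05), and the share of calls that were higher to 21.5% in S534A (31.3%) and 22.1% in WT (33.3%). Counting each of the 29 members under each alternative run, calls were lost in 24 cases in S534A and 55 in WT, and gained in 7 in S534A and 1 in WT. The losses include those under the stricter thresholds, which use the same fit and can only remove calls. The causes of the other changes were not tested. With array weights, untreated S534A against WT had 215 higher and 155 lower calls among all genes (1 and 1 without weights), and the interaction 2 and 1 (0 and 0 without weights).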
